A study of Mus musculus with 9 samples.

Results

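The mRNAs of the aminoacyl-tRNA synthetases were followed by RNA sequencing in 6620c1, a line of mouse pancreatic tumor cells, through 14 days of nutrient and oxygen deprivation. The set comprised 36 genes, taken by symbol from the 24493 rows of a table of TPM, a length-corrected transcript abundance that sums to a common total in every library. It held 20 synthetases of the cytosol and 16 of the mitochondrion, whose symbols end in 2. All 36 had at least 1 TPM in at least 3 libraries and so were among the 12693 genes tested.

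A synthetase joins an amino acid to the tRNAs that carry it, the step that sets which residue each codon is read as. For most amino acids the cytosol and the mitochondrion use different enzymes, and both kinds are encoded in the nucleus. Glycine and lysine are exceptions, since Gars and Kars each supply both compartments. When amino acids run short, uncharged tRNAs activate the kinase GCN2 (Eif2ak4), and the translation of the transcription factor Atf4 increases. Atf4 is known to turn on genes of amino acid synthesis and uptake and many, but not all, of the cytosolic synthetases.

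The libraries fell into 3 groups of 3, taken at day 0, day 2 and day 14. The labels give all 9 samples, day 0 included, the same medium and no further treatment: DMEM in which glucose was 2.5 mM, the amino acids were reduced to 20% of the usual level and fetal calf serum made up 0.5%. They give neither the oxygen level nor the medium used before day 0. No sample was cultured as long in full medium, so the effects of deprivation and of time cannot be told apart. All samples came from this cell line alone, and nothing in the labels says that replicates were separate cultures, so p-values here reflect only how far these samples differ from each other, which may be technical variation. TPM keep no read totals, and the depth of each library is therefore unknown. From 11569 to 12717 genes reached 1 TPM in a library. Markers of epithelial and pancreatic tumor cells (Krt7, Krt8, Krt18, Krt19, Epcam, Cdh1) summed to 10785 to 11441 TPM at day 0, 5456 to 7572 TPM at day 2 and 6786 to 8543 TPM at day 14, a sum carried by the keratins. Epcam averaged 2.23, 0.686 and 14.1 TPM and Cdh1 240, 224 and 399 TPM at days 0, 2 and 14, and both were called higher at day 14 than at day 0, unlike the sum. The part of these shifts in the results below was not tested. Fibroblast, leukocyte, endothelial and acinar marker lists each summed to at most 6.44 TPM in any library, and the acinar gene Amy2b was at 0 in all. Only Csf1r (leukocyte) and Cela1 (acinar) of these lists passed the filter, and both were called higher at day 14 than at day 0. Csf1r averaged 0.215, 0.559 and 3.97 TPM and Cela1 0.395, 1.79 and 3.83 TPM at days 0, 2 and 14. Cela1 was also called higher at day 2. Fewer cells of a kind and less RNA per cell cannot be told apart in such bulk samples. Over all genes tested, the median log2 fold change against day 0 was -0.02 at day 2 and 0.22 at day 14, and the median of day 14 against day 2 was 0.25. With median-of-ratios scaling these medians were -0.03, -0.05 and -0.01, so group medians are also given relative to that of all genes.

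More cytosolic enzymes rose than fell in TPM as deposited, though equal numbers did at day 14 under median-of-ratios scaling, and more mitochondrial enzymes fell than rose. At day 2 against day 0, 9 of 20 cytosolic synthetases rose and 4 fell (limma, adjusted p under 0.05), against a background of 27.1% of all genes tested that rose and 31.9% that fell. Of the 16 mitochondrial synthetases, 1 rose and 10 fell. After 14 days, 10 cytosolic synthetases rose against day 0 and 4 fell, where 36.2% of all genes rose and 18.8% fell. No mitochondrial enzyme rose at that time and 8 fell. The balance of directions depended on scaling: under median-of-ratios scaling 3086 genes rose and 4027 fell at day 14 against day 0, where TPM as deposited gave 4601 and 2389, and the cytosolic split became 5 risen and 5 fallen. The share of mitochondrial members called lower was 62.5% at day 2 and 50% at day 14, above the background at each time. The share of cytosolic members called higher was 45% at day 2 and 50% at day 14, above the background at each time in TPM as deposited. The day 14 excess was not seen under median-of-ratios scaling, where 5 of 20 members and 3086 of 12663 genes were called higher. The share of cytosolic members called lower was 20% at each time, below the background at day 2 and near it at day 14.

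The median log2 fold change, on the log2(TPM + 1) scale used for all fold changes below, was 0.30 for the cytosolic and -0.59 for the mitochondrial enzymes at day 2 against day 0. Relative to the median of all genes these were 0.31 and -0.57. For day 14 against day 0 the cytosolic median was 0.40 and the mitochondrial one -0.33, or 0.18 and -0.55 relative to all genes. Both comparisons use the same day 0 libraries. In all 20 alternative fits the median of the mitochondrial enzymes lay below that of all genes, and that of the cytosolic enzymes above it, in each comparison with day 0.

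**Figure D1:**
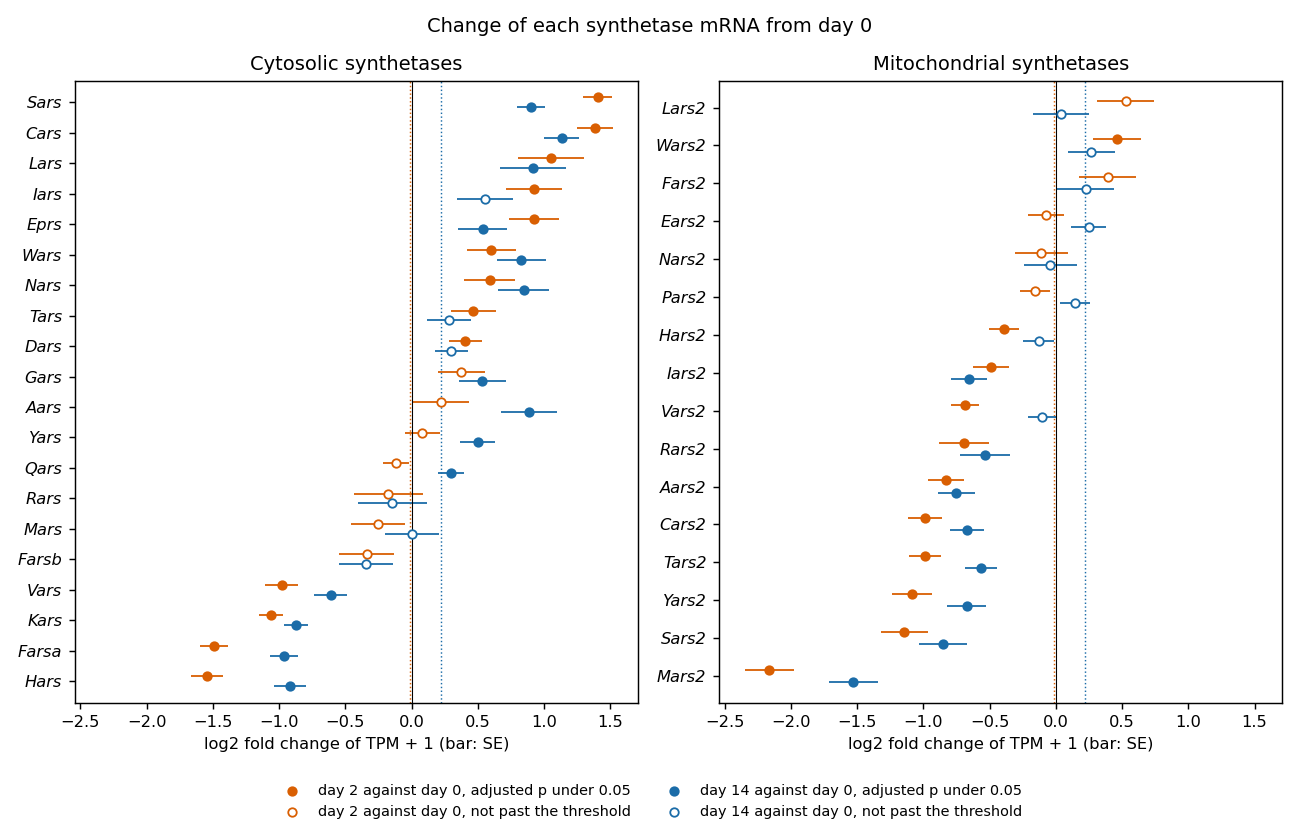
Log2 fold change of TPM + 1 from day 0 for each cytosolic (left) and mitochondrial (right) synthetase, at day 2 (orange) and day 14 (blue), with the standard error as a bar; filled points had an adjusted p under 0.05 and dotted lines mark the median of all genes tested. The cytosolic enzymes run from -1.55 (Hars) to 1.40 (Sars) at day 2, and 10 of 16 mitochondrial enzymes have filled points below 0.

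Most of the risen cytosolic enzymes belonged to a set known from textbook work as targets of the amino acid response (Aars, Cars, Eprs, Gars, Iars, Lars, Mars, Nars, Sars, Tars, Wars and Yars). The set was chosen with earlier results of these data known, so counts over it are descriptions. Outside it, Dars rose at day 2 and Qars at day 14. Against day 0, 8 of the 12 in the set rose at day 2 and 9 at day 14, and at neither time did one fall. The shares called higher were 66.7% and 75%. Their median log2 fold change was 0.59 at day 2 and 0.69 at day 14, or 0.61 and 0.47 relative to the median of all genes. Cars, Eprs, Lars, Nars, Sars and Wars rose at both times. Iars and Tars rose at day 2 alone by this test, and Aars, Gars and Yars at day 14 alone. Mars was called at neither time. Without replicate 1 of day 0, 5 of the 12 were called higher at day 2, and under median-of-ratios scaling 5 were called higher at day 14.

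Sars charges tRNAs with serine and, as the first step of the selenocysteine route, the selenocysteine tRNA. It measured 78.7, 67.7 and 63.1 TPM at day 0, 178, 202 and 178 at day 2, and 129, 126 and 139 at day 14. The 3 days did not overlap, and day 2 was the highest. On the log2 scale Sars changed by 1.40 ± 0.107 (SE) at day 2 against day 0 (limma, adjusted p = 7.32e-06), the largest rise of any synthetase, and 0.90 at day 14 against day 0 (adjusted p = 0.00018).

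Cars, for cysteine, had the lowest level of all cytosolic synthetases at day 0, a mean of 38.5 TPM. Its libraries held 43.3, 36.1 and 36.1 TPM at day 0, 97.7, 116 and 92.9 at day 2, and 81.2, 77.1 and 99.1 at day 14. Every later library lay above every day 0 library, and days 2 and 14 overlapped. Cars had a log2 fold change of 1.38 ± 0.135 (SE) at day 2 (limma, adjusted p = 3.13e-05) and 1.13 ± 0.135 at day 14 (adjusted p = 0.000182), both against day 0.

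Lars charges leucine tRNAs and is also known as a leucine sensor upstream of mTORC1. It had 70.4, 77.0 and 75.8 TPM at day 0, 112, 223 and 151 at day 2, and 106, 151 and 175 at day 14. The later days did not overlap day 0 but spread widely among themselves. Lars had a log2 fold change of 1.05 ± 0.249 (SE) at day 2 (limma, adjusted p = 0.00532) and 0.91 ± 0.249 at day 14 (adjusted p = 0.0122), against day 0, and the day 14 call was lost under median-of-ratios scaling (0.62, adjusted p = 0.0554).

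Nars, for asparagine, was the most abundant cytosolic synthetase at each of the 3 days. It had 301, 297 and 309.8 TPM at day 0, 359, 577 and 455 at day 2, and 467, 492 and 705 at day 14. All 6 later libraries exceeded the day 0 libraries. Against day 0 the log2 fold change was 0.59 at day 2 (limma, adjusted p = 0.0251) and 0.85 at day 14 (adjusted p = 0.00508). The day 2 call was lost without any of 5 libraries, namely each of the day 0 replicates and replicates 2 and 3 of day 2 (adjusted p 0.0544 to 0.0803).

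Aars, for alanine, differed from these in its timing. Its libraries gave 131, 113 and 117 TPM at day 0, 103, 195 and 138 at day 2, and 209.7, 199 and 267 at day 14. Day 2 overlapped day 0, and all day 14 libraries lay above both. Of the 31-base words of its annotated transcripts, 14.4% also occur in other genes, mostly Exosc6. Aars had a log2 fold change of 0.22 ± 0.213 (SE) at day 2 against day 0 (limma, adjusted p = 0.398) and 0.88 ± 0.213 at day 14 against day 0 (adjusted p = 0.00677).

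The other risen members of this set were Eprs, the fused enzyme for glutamate and proline, Iars for isoleucine, Wars for tryptophan, Tars for threonine, Gars for glycine and Yars for tyrosine. Eprs and Iars had log2 fold changes of 0.92 and 0.93 at day 2 and 0.54 and 0.55 at day 14, all against day 0, and Iars at day 14 missed the threshold (limma, adjusted p = 0.0505). Iars shares 14.7% of its 31-base words with other genes, mostly Gm4849. Wars rose by 0.60 at day 2 and by 0.83 at day 14. Tars rose by 0.47 at day 2, while Gars and Yars rose by 0.53 and 0.50 at day 14. The Wars call at day 2 was lost without replicate 1 of day 0, and the Yars call at day 14 under median-of-ratios scaling. Those for Eprs and Gars at day 14 were lost under that scaling and without any of 5 libraries, namely each day 0 replicate and replicates 2 and 3 of day 14, and that for Eprs also without the filter on low values (adjusted p = 0.0551). The Tars call at day 2 was lost without any of 6 libraries, namely each day 0 replicate, replicates 2 and 3 of day 2 and replicate 2 of day 14, and without the filter (adjusted p = 0.0633). Mars, which charges both initiator and elongator methionine tRNAs of the cytosol, had means of 72.2, 61.6 and 73.5 TPM at days 0, 2 and 14, with log2 fold changes of -0.25 and 0.00 at days 2 and 14.

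**Figure D2:**
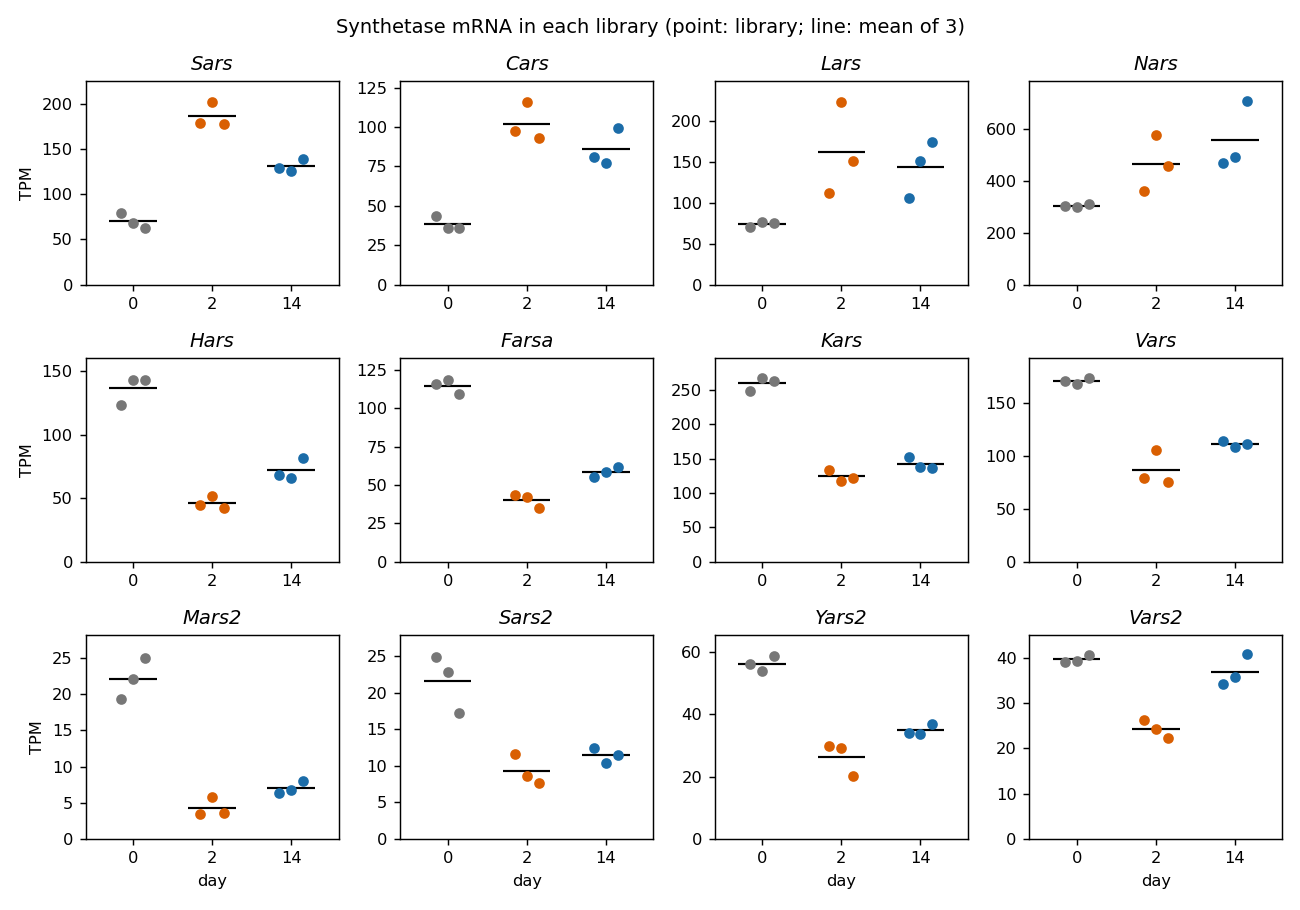
TPM of 12 synthetases in each library (points) with the mean of 3 libraries (line) at days 0, 2 and 14, each panel on its own axis from 0. The top row shows risen cytosolic enzymes, the middle row fallen cytosolic enzymes and the bottom row mitochondrial enzymes; Sars reaches 202 TPM in a day 2 library and Mars2 falls to 3.37 TPM.

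Promoters of these genes were searched for the letters TGATGNAA, or TTNCATCA on the other strand, the core of the element through which Atf4 and its C/EBP partners are known to act. RefSeq windows of 250 bases before to 50 bases after the transcription start (GRCm38.p6) were at hand for 13 of the 20 cytosolic genes and 14 of the 16 mitochondrial genes. Cars, Hars, Lars, Nars, Rars, Vars, Wars, Hars2 and Pars2 had none. The letters stood in 5 of the 13 cytosolic windows (38.5%), in 0 of the 15 windows of the 14 mitochondrial genes (1 had 2 starts), and in 3.97% of all 32851 promoter windows. All 5 belonged to the set of response targets, where 5 of 8 windows held them, against 0 of 5 windows of the other cytosolic synthetases. The windows of Eprs, Mars and Sars, also of the set, did not hold them, although Sars had the largest rise of any synthetase. Of the 5 genes with the letters, only Iars and Tars were called higher at day 2. Aars, Gars and Yars were called higher at day 14 alone. The stricter TGATGCAA, on either strand, stood in 4 of the 13 cytosolic windows and in 0.895% of all windows. Among genes listed for the amino acid response, the letters stood in 6 of 15 windows, those of Asns, Atf3, Chac1, Nupr1, Trib3 and Vldlr. A match describes the sequence and shows no binding, and the absence of one says only that these letters are not in the window.

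The 5 matching promoters are shown from 120 bases before the start to the 20th base after it, 5′ to 3′ on the gene's own strand, with the matched letters in capitals. They are at chr8:111033722-111033861 (Aars), chr6:55037881-55038020 (Gars), chr13:49682010-49682149 (Iars), chr15:11399639-11399778 (Tars, minus strand) and chr4:129189783-129189922 (Yars), the other 4 on the plus strand.
Aars: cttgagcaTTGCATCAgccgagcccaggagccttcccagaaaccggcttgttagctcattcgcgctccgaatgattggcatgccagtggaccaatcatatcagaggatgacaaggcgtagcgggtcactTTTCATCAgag
Gars: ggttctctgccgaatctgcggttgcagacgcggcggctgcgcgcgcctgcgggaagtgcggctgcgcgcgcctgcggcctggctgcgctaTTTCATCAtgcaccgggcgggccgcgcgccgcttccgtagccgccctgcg
Iars: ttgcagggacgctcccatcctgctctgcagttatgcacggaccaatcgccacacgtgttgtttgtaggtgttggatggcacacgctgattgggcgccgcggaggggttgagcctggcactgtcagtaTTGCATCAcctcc
Tars: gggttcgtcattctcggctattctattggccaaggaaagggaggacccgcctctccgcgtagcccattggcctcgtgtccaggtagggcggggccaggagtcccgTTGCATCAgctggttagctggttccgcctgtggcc
Yars: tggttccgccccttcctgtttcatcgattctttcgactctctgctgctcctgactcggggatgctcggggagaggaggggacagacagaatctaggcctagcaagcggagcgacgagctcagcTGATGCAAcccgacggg
Aars held the letters at positions -112 to -105 and again at 10 to 17, counted from 1 at the start with no 0. The matches in Gars, at -30 to -23, and Tars, at -15 to -8, lay close before the start, and those in Iars, at 8 to 15, and Yars, at 4 to 11, just after it. In Yars the letters read forward on the gene's strand, and in the other 4 genes they read in reverse.

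For contrast, the same stretch is shown for Farsa and Mars2, which fell most among the genes of each compartment that had a window. Neither holds the letters, nor does the window of the risen Sars. They are at chr8:84856866-84857005 (Farsa) and chr1:55237057-55237196 (Mars2), both on the plus strand.
Farsa: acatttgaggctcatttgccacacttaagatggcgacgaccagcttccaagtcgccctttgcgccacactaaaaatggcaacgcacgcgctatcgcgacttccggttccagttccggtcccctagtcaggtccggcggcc
Mars2: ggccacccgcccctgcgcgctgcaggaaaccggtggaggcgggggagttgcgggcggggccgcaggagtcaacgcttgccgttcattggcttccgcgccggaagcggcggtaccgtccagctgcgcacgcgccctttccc

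Of the 8 cytosolic synthetases outside the response set, 4 fell, 1 rose and 3 were not called at day 2 against day 0, with a median log2 fold change of -0.66, or -0.65 relative to all genes. After 14 days the counts against day 0 were the same, with a median of -0.48, or -0.70 relative to all genes. The share called lower was 50% at each time. Farsb and Rars were called at neither time. The 4 that fell were Hars, Farsa, Kars and Vars at both times. Dars, for aspartate, rose by 0.41 at day 2, a call lost without replicate 1 of day 0 (adjusted p = 0.0642) or replicate 1 of day 2 (adjusted p = 0.0502). Qars, for glutamine, rose by 0.30 at day 14 as deposited, and its log2 fold change was 0.00 under median-of-ratios scaling. That call was also lost without any day 0 replicate or without replicate 1 of day 14.

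Hars, for histidine, fell the most among the cytosolic enzymes at day 2. It had 123, 143 and 143 TPM at day 0, 44.9, 51.3 and 42.1 at day 2, and 68.0, 65.9 and 81.6 at day 14. The 3 days did not overlap, and day 14 lay between the others. Hars had a log2 fold change of -1.55 ± 0.122 (SE) at day 2 against day 0 (limma, adjusted p = 8.93e-06) and -0.92 ± 0.122 at day 14 against day 0 (adjusted p = 0.000317). Hars and Hars2 share 165 of the 2469 31-base words of the annotated Hars transcripts, so reads from that stretch could be assigned to either.

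Farsa encodes the alpha subunit of the cytosolic phenylalanine enzyme, which works only together with the beta subunit, Farsb. Farsa had 116, 119 and 109 TPM at day 0, 43.4, 42.2 and 35.1 at day 2, and 55.3, 58.4 and 61.4 at day 14. As for Hars, the days did not overlap and day 14 was intermediate. Farsa had a log2 fold change of -1.49 ± 0.106 (SE) at day 2 against day 0 (limma, adjusted p = 4.75e-06) and -0.96 ± 0.106 at day 14 against day 0 (adjusted p = 0.000127). Farsb did not pass the test, with a log2 fold change of -0.34 at each time (adjusted p = 0.185 at day 2 and 0.183 at day 14). The ratio of Farsa to Farsb TPM averaged 1.58 ± 0.177, 0.723 ± 0.225 and 1.02 ± 0.0844 (SD over 3 libraries) at days 0, 2 and 14, and the later days did not reach the day 0 range of 1.40 to 1.76.

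Kars, for lysine, supplies both compartments from a single gene. It had 249, 267 and 263 TPM at day 0, 134, 118 and 121 at day 2, and 152, 137 and 136 at day 14. All later libraries lay far below day 0. Kars had a log2 fold change of -1.06 ± 0.0902 (SE) at day 2 against day 0 (limma, adjusted p = 1.44e-05) and -0.87 ± 0.0902 at day 14 against day 0 (adjusted p = 9.59e-05). Gars, the other gene that serves both compartments, had a log2 fold change of 0.38 at day 2 (adjusted p = 0.0942) and rose by 0.53 at day 14. Vars, for valine, had means of 171, 86.9 and 111 TPM at days 0, 2 and 14, and fell by 0.98 at day 2 and by 0.61 at day 14 against day 0.

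Kars, Lars, Eprs, Iars, Dars, Mars, Qars and Rars sit together in the multi-synthetase complex of the cytosol. Of these 8 members, 4 rose and 1 fell at day 2, and 3 rose and 1 fell at day 14, against day 0. The shares called higher were 50% at day 2, where 27.1% of all genes were, and 37.5% at day 14, near the background of 36.2%. Among the 12 outside the complex, 5 rose and 3 fell at day 2, and 7 rose and 3 fell at day 14. Kars had the lowest and Lars the highest log2 fold change of the 8 at each later day. The ratio of Kars to Lars TPM averaged 3.49 ± 0.0395, 0.844 ± 0.339 and 1.04 ± 0.347 (SD over 3 libraries) at days 0, 2 and 14. It is thus the widest shift between 2 of these subunits and not a typical one. Of its 3 scaffold genes, Aimp2 fell by 0.54 at day 2 and by 0.83 at day 14, and Eef1e1 (AIMP3) fell by 1.05 and by 0.73. Aimp1 had a log2 fold change of 0.26 at day 2 (adjusted p = 0.0833) and -0.13 at day 14. By the structural class of the catalytic domain, 4 of 9 class I enzymes rose and 1 fell at day 2, and 4 of 10 class II enzymes rose and 3 fell, with Eprs holding a domain of each class. The shares called lower were 11.1% and 30%, against 31.9% of all genes, and those called higher were 44.4% and 40%.

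The mitochondrial enzymes were less abundant than the cytosolic ones, and 8 of 16 fell at both later days. The share of all genes that fell at both days was not counted. It cannot exceed the 18.8% that fell at day 14, and both comparisons use the same day 0 libraries. Mean levels at day 0 ran from 3.34 TPM (Ears2) to 311 TPM (Lars2), with a median of 20.7 TPM over the 16 genes, against 38.5 to 302 TPM with a median of 87.8 TPM for the cytosolic enzymes. At days 2 and 14 the median mitochondrial levels were 10.3 and 12.5 TPM, and the cytosolic medians 112 and 113 TPM. Mars2, Sars2, Yars2, Tars2, Cars2, Aars2, Rars2 and Iars2 fell at both times against day 0. Vars2 and Hars2 fell at day 2 only by this test. Ears2, Fars2, Nars2, Pars2 and Lars2 were called in no comparison.

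Mars2 charges the mitochondrial methionine tRNA, which there serves both to start and to extend chains. It had 19.4, 22.1 and 25.0 TPM at day 0, 3.37, 5.80 and 3.60 at day 2, and 6.32, 6.80 and 7.94 at day 14. The days did not overlap, and day 2 was the lowest. Mars2 had a log2 fold change of -2.16 ± 0.186 (SE) at day 2 against day 0 (limma, adjusted p = 1.53e-05), the largest change of the 36 genes, and -1.53 ± 0.186 at day 14 against day 0 (adjusted p = 0.000202).

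Sars2, the mitochondrial partner of Sars, had 24.9, 22.9 and 17.2 TPM at day 0, 11.6, 8.59 and 7.67 at day 2, and 12.4, 10.4 and 11.5 at day 14. Neither later day overlapped day 0. The log2 fold change was -1.14 ± 0.179 (SE) at day 2 (limma, adjusted p = 0.000535) and -0.85 ± 0.179 at day 14 (adjusted p = 0.0035), against day 0.

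Yars2, for mitochondrial tyrosine tRNA, had 56.2, 53.8 and 58.6 TPM at day 0, 29.9, 29.2 and 20.0 at day 2, and 34.1, 33.7 and 36.9 at day 14. The 3 days were separate, with day 2 lowest. Its log2 fold change was -1.09 ± 0.148 (SE) at day 2 (limma, adjusted p = 0.000235) and -0.67 ± 0.148 at day 14 (adjusted p = 0.00435), against day 0.

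Aars2, whose product charges mitochondrial alanine tRNA, had 17.9, 14.7 and 14.9 TPM at day 0, 8.71, 9.16 and 7.50 at day 2, and 7.64, 9.67 and 9.72 at day 14. Days 2 and 14 overlapped each other and lay below day 0. Its log2 fold change was -0.83 at day 2 (limma, adjusted p = 0.000781) and -0.75 at day 14 (adjusted p = 0.0018), against day 0. Cars2 and Tars2 each had a log2 fold change of -0.99 at day 2, and values of -0.67 and -0.57 at day 14. Rars2 fell by 0.69 and by 0.54 at days 2 and 14, and Iars2 by 0.49 and by 0.65. Hars2 fell by 0.39 at day 2. The Rars2 call at day 14 was lost without any of 5 libraries, namely each day 0 replicate and replicates 1 and 2 of day 14, and without the filter on low values. The Iars2 call at day 2 was lost under quantile normalization (-0.20, adjusted p = 0.239). The Hars2 call was lost without replicate 2 or 3 of day 0 and with the 20 most abundant rows removed. Iars2 shares 23.6% of its 31-base words with other annotated transcripts, mostly those of Rab3gap2.

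Wars2, for tryptophan, was the only mitochondrial synthetase called higher in any comparison with day 0. It had 6.0, 6.50 and 8.42 TPM at day 0, 10.5, 11.5 and 8.01 at day 2, and 9.27, 9.47 and 7.04 at day 14. Replicate 3 of day 2 lay below replicate 3 of day 0, so the groups overlapped. The log2 fold change at day 2 against day 0 was 0.46 ± 0.179 (SE), with an adjusted p of 0.0491 (limma) that missed the threshold in 10 of 20 alternative fits, 6 of them without 1 library (replicate 1 or 2 of day 0, day 2 or day 14). It was also missed with the replicate number as a block (adjusted p = 0.0663).

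Lars2, for leucine, was the most abundant mitochondrial synthetase at every day and held 46.1% ± 4.34, 66.8% ± 8.94 and 55.4% ± 4.57 (SD over 3 libraries) of the summed mitochondrial TPM at days 0, 2 and 14. It had 351, 257 and 324 TPM at day 0, 412, 344 and 620 at day 2, and 368, 279 and 309 at day 14. The days overlapped, and replicate 3 of day 2 stood highest. Lars2 had a log2 fold change of 0.53 ± 0.215 (SE) at day 2 against day 0 (limma, adjusted p = 0.0594) and 0.04 at day 14 against day 0 (adjusted p = 0.889).

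The Lars2 level followed that of a row named Mir6236, a microRNA gene symbol that took between 8.27% and 22.5% of all TPM in a library. Per 1000 TPM of Mir6236, Lars2 had 3.10, 3.11 and 3.01 TPM at day 0, 2.81, 2.61 and 2.75 at day 2, and 2.69, 2.53 and 2.62 at day 14. The standard deviation of the log2 ratio of Lars2 to Mir6236 over the 9 libraries was 0.113, the smallest of 12291 genes with a value above 0 in every library. The next gene had 0.178, the median gene 0.633, and the other 15 mitochondrial synthetases 0.412 (Wars2) to 1.43 (Mars2). This comparison was made after the Lars2 values were seen. The annotated transcripts of Lars2 and Mir6236 share 0 words of 31 bases, and which RNA the reads came from was not tested. The 31-base words were counted in GENCODE vM21 transcripts, not in the index the authors used.

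**Figure D3:**
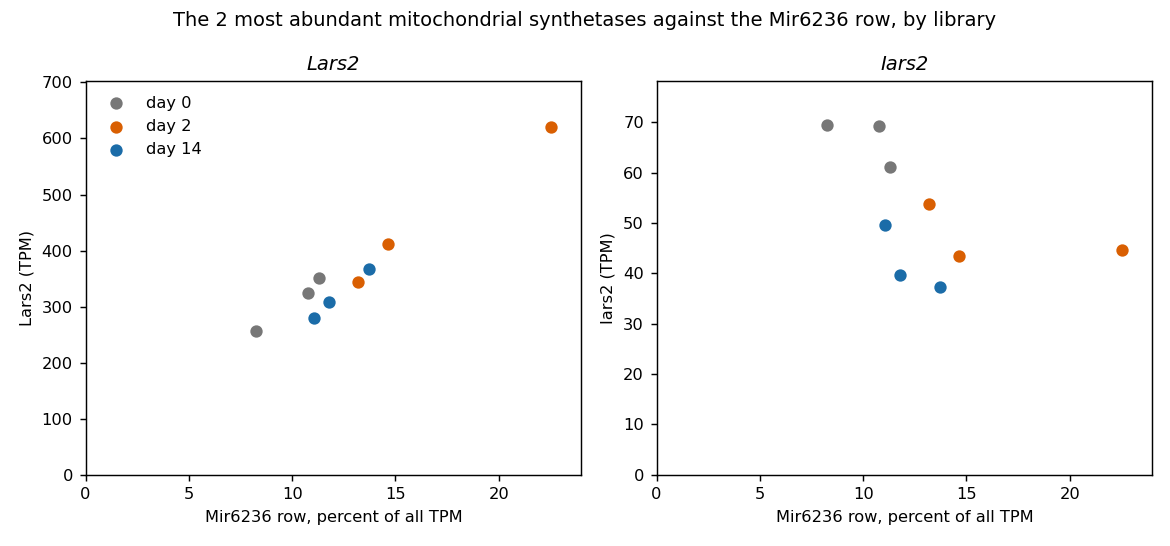
TPM of Lars2 (left) and Iars2 (right), the 2 most abundant mitochondrial synthetases, against the percent of all TPM held by the Mir6236 row, 1 point per library, coloured by day. The Lars2 points run from 257 TPM at 8.27% to 620 TPM at 22.5%, while Iars2 stays between 37.4 and 69.5 TPM.

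Summed over all members, the cytosolic synthetases held 2336 ± 52.7, 2689 ± 547 and 2871 ± 387 TPM (SD over 3 libraries) at days 0, 2 and 14. The mitochondrial sums were 671 ± 43.5, 676 ± 119 and 573 ± 33.8 TPM at the same days. The ratio of the sums was 3.49 ± 0.273, 4.10 ± 1.37 and 5.04 ± 0.840. With Lars2 left out, the mitochondrial sums were 360 ± 7.81, 218 ± 24.9 and 254 ± 11.8 TPM, and the ratios 6.48 ± 0.0252, 12.4 ± 2.01 and 11.3 ± 1.47. Without Lars2, every library of day 2 (10.1 to 13.8) and of day 14 (10.4 to 13.0) had a higher ratio than any of day 0 (6.46 to 6.51), whereas with Lars2 the ranges of days 2 and 0 overlapped.

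Within a library, the ratio of the cytosolic to the mitochondrial enzyme of the same amino acid does not depend on scaling between libraries. For 16 such pairs (Farsa standing for the cytosolic phenylalanine enzyme, and Eprs set against both Ears2 and Pars2), the mean log2 ratio was higher at day 2 than at day 0 in 13 and lower in 3, with a median difference of 1.07. Between day 14 and day 0 it was again higher in 13 and lower in 3, with a median difference of 0.88. Between day 14 and day 2 it was higher in 6 and lower in 10, with a median of -0.18. The median ratio over the pairs was 2.45 on the log2 scale at day 0, 3.37 at day 2 and 3.02 at day 14. The 13 pairs with a higher ratio than at day 0 include some whose libraries overlapped day 0. These were tryptophan (difference 0.09) and leucine at day 2, and glutamate (0.23), proline (0.37) and leucine at day 14. The leucine pair also rests on the Lars2 row, which followed Mir6236.

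The pair for serine shifted the most at day 2. Sars exceeded Sars2 by a factor of 3.25 at day 0, 20.3 at day 2 and 11.5 at day 14, as geometric means of 3 libraries. For cysteine the factor of Cars over Cars2 was 1.75, 9.59 and 6.36, and for methionine that of Mars over Mars2 was 3.27, 14.6 and 10.3 at the same days. Mars itself was called at neither time, and Mars2 fell at both. For alanine, Aars over Aars2, it was 7.64, 16.7 and 24.9. In each of these 4 pairs the libraries of days 2 and 14 lay above those of day 0 without overlap. For isoleucine and tyrosine the mitochondrial mRNA was the more abundant at day 0, with factors of 0.840 (Iars over Iars2) and 0.737 (Yars over Yars2), and the cytosolic one at the later days, with factors of 2.27 and 1.97 for isoleucine and of 1.69 at each day for tyrosine. Those libraries did not overlap day 0 either.

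The 3 pairs that shifted the other way were phenylalanine, histidine and valine. The factor of Farsa over Fars2 was 10.3 at day 0, 2.68 at day 2 and 4.42 at day 14. That of Hars over Hars2 was 6.90, 3.10 and 3.98 at the same days. For valine, where Vars and Vars2 both fell at day 2, the factor was 4.30 at day 0, 3.54 at day 2 and 3.02 at day 14, and the libraries of days 2 and 0 overlapped. Leucine was the only pair whose mitochondrial row was the more abundant at all 3 days, with Lars over Lars2 at 0.241, 0.350 and 0.445. Its libraries overlapped between days. The Lars2 row followed Mir6236, and which RNA its reads came from was not tested, so this ratio may not be one of the 2 mRNAs.

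**Figure D4:**
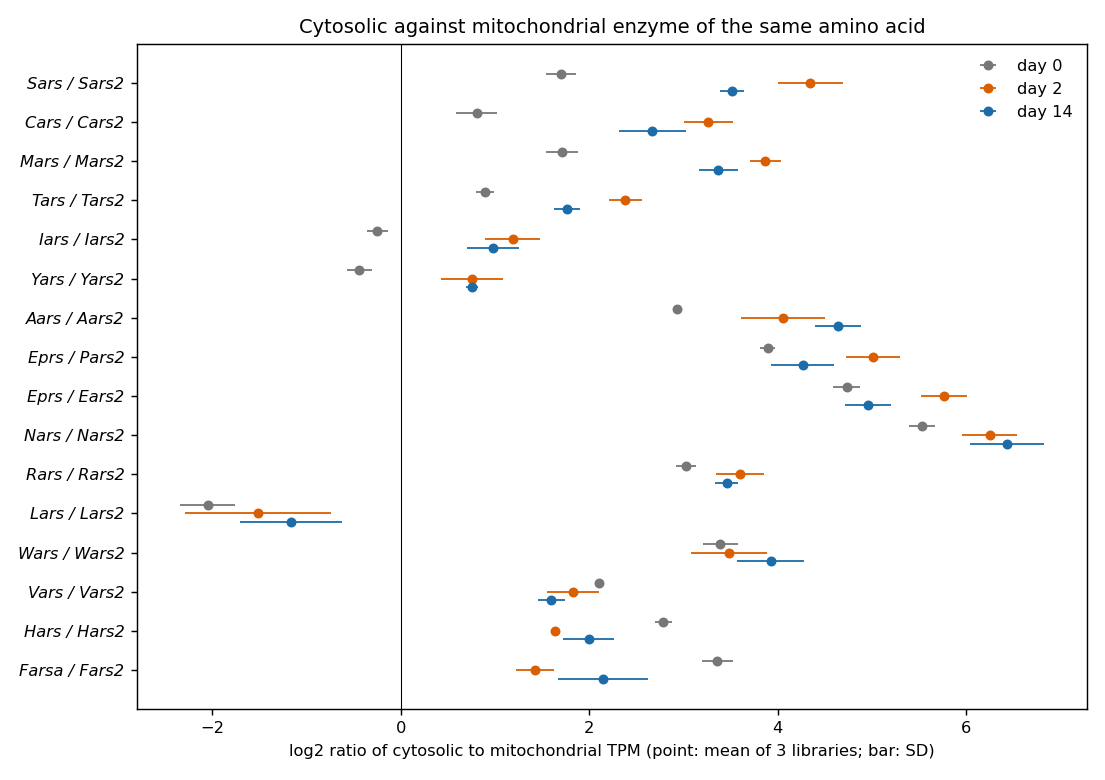
Log2 ratio of cytosolic to mitochondrial TPM for the 16 pairs of enzymes of the same amino acid, as the mean of 3 libraries with the SD as a bar, at day 0 (grey), day 2 (orange) and day 14 (blue). In 13 pairs day 2 lies to the right of day 0, by up to 2.65 for Sars and Sars2, and in the 3 lowest pairs to the left, with a difference of -1.94 for Farsa and Fars2.

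Fewer synthetases differed between the later days. At day 14 against day 2, 5 cytosolic members were higher and 1 lower, and 3 mitochondrial members were higher and 0 lower, where 27.4% of all genes were higher and 3.79% lower. Relative to the median of all genes, the cytosolic median was -0.07 and the mitochondrial one 0.03. Directions in this comparison depended on scaling: with median-of-ratios scaling 1572 genes were higher and 1485 lower, and 1 cytosolic member was higher and 5 lower. This contrast is also the difference between the 2 changes from day 0.

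Among the genes that had fallen by day 2, Hars, Farsa, Mars2, Tars2 and Vars2 were higher at day 14 than at day 2. Hars had a log2 fold change of 0.63 ± 0.122 (SE) at day 14 against day 2 (limma, adjusted p = 0.00521) and Farsa one of 0.53 ± 0.106 (adjusted p = 0.00586). Mars2 had 0.63 ± 0.186 (adjusted p = 0.0304).

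Vars2, for mitochondrial valine tRNA, had 39.1, 39.3 and 40.6 TPM at day 0, 26.4, 24.3 and 22.4 at day 2, and 34.2, 35.8 and 40.7 at day 14. The day 14 libraries overlapped those of day 0 and lay above all of day 2. Its log2 fold change was 0.58 ± 0.105 (SE) at day 14 against day 2 (limma, adjusted p = 0.0037), -0.69 at day 2 against day 0 (adjusted p = 0.000476) and -0.10 at day 14 against day 0 (adjusted p = 0.418).

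Tars2, for mitochondrial threonine tRNA, had 43.9, 48.2 and 48.5 TPM at day 0, 21.5, 27.0 and 21.3 at day 2, and 28.9, 33.4 and 31.7 at day 14. Day 14 lay between the other days without overlap. The log2 fold change at day 14 against day 2 was 0.42 ± 0.119 (SE; limma, adjusted p = 0.0265).

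Sars moved the opposite way, with a log2 fold change of -0.50 ± 0.107 (SE) at day 14 against day 2 (limma, adjusted p = 0.00811). Aars, Qars and Yars were higher at day 14 than at day 2, with log2 fold changes of 0.67, 0.41 and 0.42. Of these 9 calls, those for Hars, Sars and Vars2 held in all 20 alternative fits. The call for Farsa was lost under median-of-ratios scaling alone (adjusted p = 0.0595). The call for Aars was lost in 15 of the 20, among them the removal of any library but replicate 2 of day 2, with adjusted p up to 0.214. That for Yars was lost in 13, again with any library but that one removed, and adjusted p up to 0.409. Those for Mars2 and Tars2 were lost in 9 and 8, which for both included the removal of replicate 1 or 3 of day 2 or replicate 2 or 3 of day 14, and for Mars2 that of replicate 2 of day 0. That for Qars was lost in 4, all of them other scalings or the fit of these days alone.

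Replicates of the later days differed from each other in step across the response set. All 12 of its synthetases were highest in replicate 2 among the day 2 libraries, and 10 of 12 were lowest in replicate 1. Among the day 14 libraries, 11 of 12 were highest in replicate 3 and 9 of 12 were lowest in replicate 1. The median log2 deviation from the mean of the day was -0.31, 0.37 and -0.05 in replicates 1, 2 and 3 of day 2, and -0.22, 0.00 and 0.23 in those of day 14. At day 0 it lay between -0.01 and 0.02. Of the other 8 cytosolic synthetases, 5 were highest in replicate 2 of day 2 and 4 in replicate 3 of day 14. Among them, Rars and Farsb were highest and lowest in the same replicates as most of the set, with deviations of 0.52 and 0.51 in replicate 2 of day 2. Of the 16 mitochondrial synthetases, 10 were highest in replicate 2 of day 2 and 5 in replicate 3 of day 14. Of the 13 genes listed for the amino acid response, 11 were highest in replicate 2 of day 2. At day 14, 7 were highest in replicate 3 and 6 in replicate 1. Unlike the synthetases of the set, these genes were also in step at day 0. There 11 of 13 were highest in replicate 1, with a median deviation of 0.26, where 3601 of 12693 genes tested were. Over all genes tested, 6366 of 12693 were highest in replicate 2 of day 2 and 4895 in replicate 3 of day 14. Lowest in replicate 1 were 3564 of them at day 2 and 4928 at day 14. What differed between these libraries was not tested, and the spread it gives these genes enters every standard error above.

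**Figure D5:**
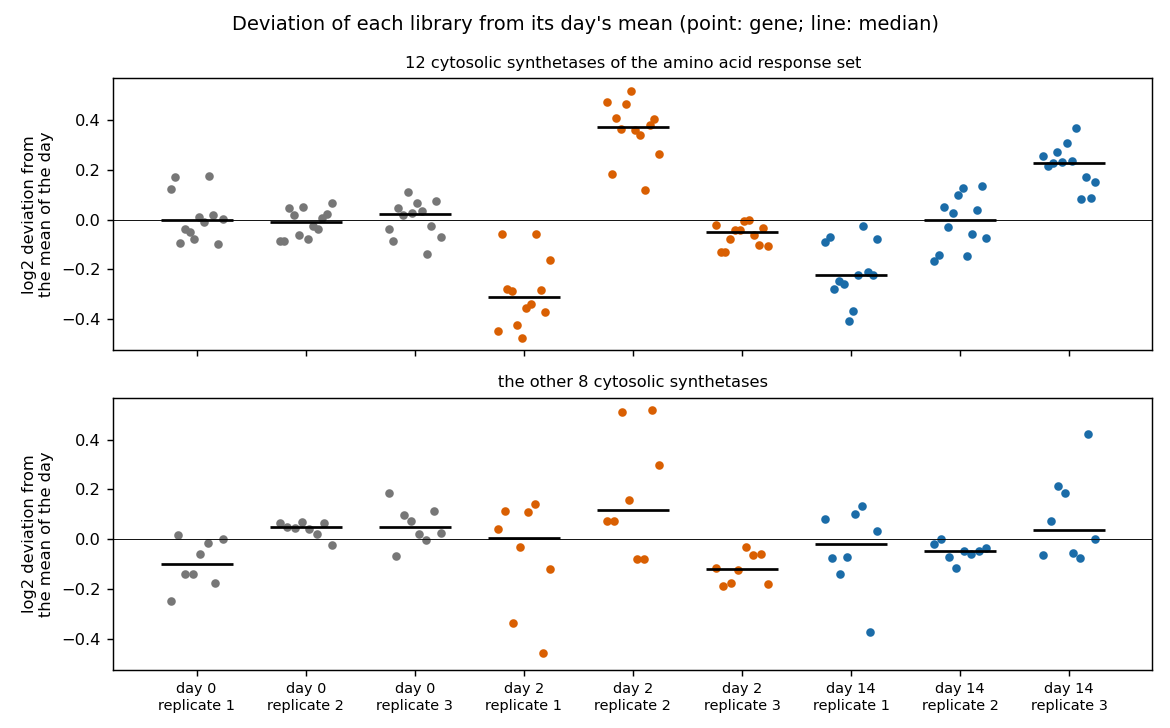
Log2 deviation of each library from the mean of its day for the 12 cytosolic synthetases of the amino acid response set (top) and the other 8 (bottom), 1 point per gene with the median as a line. In the top panel all 12 points of day 2 replicate 2 lie above 0 and all those of day 2 replicate 1 below 0; the day 0 medians lie between -0.01 and 0.02.

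Of the genes listed for the amino acid response, 11 of 13 were called higher at day 2 and 11 of 13 at day 14, against day 0. That share was 84.6% at each time, where 27.1% of all genes were called higher at day 2 and 36.2% at day 14. The list was chosen with earlier results of these data known. Nutrients and oxygen were limited together, so which of them these rises followed cannot be told apart. Atf4 had 300.0, 278 and 296 TPM at day 0, 440.1, 641 and 592 at day 2, and 498, 522 and 626 at day 14. No later library overlapped day 0, and the log2 fold change was 0.92 ± 0.147 (SE) at day 2 (limma, adjusted p = 0.000606) and 0.90 ± 0.147 at day 14 (adjusted p = 0.000915). Asns, asparagine synthetase, which makes the amino acid that Nars attaches, rose by 1.58 and by 1.55. The largest rises at day 2 were those of Vldlr, a lipoprotein receptor, at 5.05, and Ddit4, an inhibitor of mTORC1 signalling, at 4.54. Gcn1l1, the co-activator of GCN2, fell by 0.49 at day 2, and Eif2ak4, the kinase, had a log2 fold change of 0.05 (adjusted p = 0.75).

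Genes for the steps after charging were examined in the same fit. Of all genes tested, 27.1% were called higher and 31.9% lower at day 2 against day 0. At day 14 the shares were 36.2% and 18.8%. Of 5 cytosolic elongation factor genes, 3 rose and 1 fell at each time against day 0, so 60% were called higher. Eef1a1, which delivers charged tRNAs to the cytosolic ribosome, rose by 0.73 at day 2 and by 0.49 at day 14, Eef1b2 rose by 0.63 and by 0.64, and Eef2, which moves the ribosome along, rose by 0.90 and by 0.49. Eef1d fell by 0.56 and by 0.49. Of 9 mitochondrial translation factors, 5 fell and 0 rose at day 2, and 4 fell and 1 rose at day 14. The shares called lower were 55.6% and 44.4%. Gfm1, the mitochondrial counterpart of Eef2, fell by 1.67 and by 1.44. Tsfm, the exchange factor of the mitochondrial elongation factor Tufm, fell by 1.49 and by 1.06. Mtif2, for mitochondrial initiation, rose by 0.46 at day 14.

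The mitochondrion makes its glutamine tRNA by amidation of a tRNA first charged with glutamate. Of 4 genes for this step and for the formylation of initiator tRNA, 2 fell and 0 rose at each time against day 0. The share called lower was 50% at each time, where 31.9% of all genes were at day 2 and 18.8% at day 14. Qrsl1, the catalytic subunit of the amidotransferase, had a log2 fold change of -1.45 at day 2 and -1.01 at day 14. Gatc fell by 0.51 at day 2, and Gatb fell by 0.42 at day 14. Ears2, the enzyme that supplies this step, had 3.32, 3.63 and 3.06 TPM at day 0, 3.05, 3.54 and 2.78 at day 2, and 3.75, 4.74 and 3.98 at day 14, and was not called at either time.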

How the data were processed

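Gene expression was deposited as TPM per gene for 9 libraries, made from total RNA by a commercial company per the labels' protocols. The authors quantified transcripts with Salmon, per the submitters' processing notes; the version, the index and the build are each not given in the sources used here. Each of the 9 deposited TPM columns summed to 1e+06, no scaling between samples was visible, and the meaning of the column prefix WT is not given. TPM hold no read totals, so no counting intervals are given.

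Groups followed the day in the labels. Rows that reached 1 TPM in 3 or more libraries were tested as log2(TPM + 1) with limma 3.58.1 in R 4.3.3, with 1 mean per day over all 9 libraries and eBayes with a trend. P-values are two-sided and Benjamini-Hochberg adjusted over all 12693 genes in each of 3 comparisons, with calls at an adjusted p under 0.05. Members within each compartment were named in full if they had the 3 largest rises or falls of a comparison without overlap between groups, opposite calls over time, or the highest level; the others are given more briefly. Wars2 and Ears2, and the comparison of Lars2 with Mir6236, were chosen after their values were seen. In related lists of up to 6 genes those called were named, and in longer lists the 2 largest rises and falls; Atf4, Asns, Eif2ak4 and Xpot were added after their values were seen. The values of 1 listed gene are not reported here.

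The members, the lists, the set of response targets and the motif were chosen from textbook knowledge with earlier results of these data known, so counts over lists are descriptions. Alternatives changed the scaling (median-of-ratios, quantile normalization, or the 20 most abundant rows or Mir6236 left out), the filter (none, or a mean of 5 TPM or more), the pseudocount (0.1 or 5), the threshold (0.01), the variance model (no trend), the samples (only the groups compared, or each library left out) and the covariates (a replicate block). The fit was tested on simulated data. Promoter sequences are RefSeq's on GRCm38.p6; shared words were counted in GENCODE vM21 transcripts. Summaries and figures used Python 3.11.15 and matplotlib 3.10.9.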

Additional observations from a re-analysis of the deposited data

Results flagged for a closer look

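For 9 synthetases the change from day 0 at day 14 differed from that at day 2 by the test of the difference itself (limma, day 14 against day 2, adjusted p under 0.05). On the log2 scale the difference, day 14 minus day 2, was 0.67 for Aars, 0.53 for Farsa, 0.63 for Hars, 0.41 for Qars, -0.50 for Sars and 0.42 for Yars among the cytosolic enzymes. It was 0.63 for Mars2, 0.42 for Tars2 and 0.58 for Vars2 among the mitochondrial enzymes. Over all genes tested the median difference was 0.25, and it was -0.01 under median-of-ratios scaling. Of the 9, those for Hars, Sars and Vars2 passed in all 20 alternative fits.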

How the results depend on the processing

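Of the 24 synthetases called at day 2 against day 0, 17 were called in the same direction in all 20 alternative fits; at day 14 against day 0 it was 16 of 22 and at day 14 against day 2 it was 3 of 9. No call reversed in any of them. At day 2 against day 0, where 9 cytosolic enzymes rose, 5 rose at an adjusted p under 0.01 and 5 to 9 with a library left out; 1 mitochondrial enzyme rose, and 0 did without the filter, with a mean filter of 5 TPM, in a fit of only the groups compared or at 0.01, 2 under quantile normalization or with the 20 most abundant rows removed, and 0 or 1 with a library left out. At day 14 against day 0, where 10 cytosolic enzymes rose, 5 did under median-of-ratios scaling and 5 at 0.01. At day 14 against day 2, 5 cytosolic enzymes were higher; the count was 1 under median-of-ratios scaling, 2 under quantile normalization, with 20 rows removed, in the fit of these days alone and at 0.01, 3 without Mir6236, and 3 to 6 with a library left out. For the 1 that was lower it was 5 under median-of-ratios scaling and 6 under quantile normalization. For the 3 mitochondrial enzymes that were higher it was 1 under either scaling, in the fit of these days alone and at 0.01, and 1 to 5 with a library left out; for the 0 that were lower it was 1 and 2 under the same scalings and 0 or 1 with a library left out. The fit of these days alone called 2616 genes, against 3955 of all genes with every day in the fit. With Lars2 left out, a step added after the values were seen, the cytosolic to mitochondrial ratio was 6.48, 12.4 and 11.3 at days 0, 2 and 14. The cause of these shifts was not tested.

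The labels number replicates alike in each day, but the values did not show that a number pairs samples: correlations of same-numbered deviations ran from -0.0709 to 0.318 and 4 of 9 libraries correlated best with their own number. With the replicate block, 2 mitochondrial enzymes rose at day 2 against day 0, where 1 did without it; that 1, Wars2, was not among the 2 (adjusted p = 0.0663). The unknown depth limits what can be said of Ears2, Pars2 and Nars2, each under 8 TPM in every library.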

Other observations

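Genes for other steps of tRNA supply were examined in the same fit, where 31.9% of all genes were called lower at day 2 and 18.8% at day 14, against day 0. Of 10 genes for tRNA export and end processing, 7 fell and 0 rose at day 2, and 5 fell and 1 rose at day 14. The shares called lower were 70% and 50%. Set against day 2, 5 were higher at day 14 and 0 lower, where 27.4% of all genes were higher and 3.79% lower. Trnt1, which adds the terminal CCA to tRNAs, fell by 1.18 and by 0.65, and Elac2, which trims their ends, by 1.17 and by 1.07. Elac1, a tRNA end-processing enzyme, rose by 0.81 at day 14. Xpot, the tRNA exporter, had log2 fold changes of 0.72 at day 2 (limma, adjusted p = 0.0511) and 0.67 at day 14 (adjusted p = 0.0677).

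Of 6 genes of the selenocysteine tRNA route, 3 fell and 0 rose at day 2, and 2 fell and 0 rose at day 14. The shares called lower were 50% and 33.3%, where 31.9% and 18.8% of all genes were. Sephs2, which makes the selenium donor and is itself a selenoprotein, measured 127, 111 and 117 TPM in the day 0 libraries, 28.7, 36.3 and 32.6 TPM in those of day 2, and 105, 101.9 and 92.2 TPM in those of day 14. Day 2 lay far below both other days. The log2 fold change was -1.84 ± 0.112 (SE) at day 2 against day 0 (limma, adjusted p = 2.13e-06) and 1.59 ± 0.112 at day 14 against day 2 (adjusted p = 2.13e-05). Sephs1 fell by 0.97 at day 2 and by 0.70 at day 14, and Eefsec, the elongation factor for selenocysteine, fell by 0.59 at day 2. Pstk, the kinase that acts on the tRNA after Sars has charged it, fell by 0.49 at day 14.

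Of 5 genes that edit mischarged tRNAs or act on tRNAs in related ways, 2 fell and 0 rose at day 2, and 2 fell and 1 rose at day 14, while 3 were higher at day 14 than at day 2. The share called lower was 40% at each time, where 31.9% of all genes were at day 2 and 18.8% at day 14. Of all genes, 27.4% were higher at day 14 than at day 2, a direction that depended on scaling. Aarsd1, which clears serine from alanine tRNA, fell by 1.69 at day 2 and by 0.99 at day 14. Yrdc, needed for the threonyl-carbamoyl modification of tRNAs, fell by 1.15 and by 0.52. Prorsd1 rose by 0.40 at day 14. Dtd2 had a log2 fold change of 0.67 at day 14 against day 2 (limma, adjusted p = 0.00948).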
